A study of Mus musculus with 6 samples.

Results

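Transcripts of 10 genes that build or direct cartilage were followed in mouse femur: the transcription factor genes Sox9, Sox5 and Sox6, the growth plate signal gene Ihh, and the matrix genes Comp, Acan, Hapln1, Matn3, Cnmd and Prg4. They were taken by name as a set of cartilage matrix and SOX genes, 10 of the 55421 genes counted. A filter on low counts left 18838 genes for testing, among them 8 of the 10; Matn3 and Cnmd were too low. RNA came from femurs of C57BL/6 mice aged 12 weeks with the genotype WT, in fractions enriched for osteocytes, the bone cells that sit inside the mineralized matrix. Of the 6 libraries, 3 were labelled control and 3 phlebotomy, the removal of blood; how much blood was taken, and how long before, is not given in the sources used here. The comparison of the groups asks how transcripts of bone differ after blood loss. Deposited columns are numbered 1, 2 and 4 in each group and carry only an initial for the group: P was read as phlebotomy, and N as control by elimination, which limits every direction given here. Whether each library came from a separate animal is not stated, so the p-values speak only of the spread among these libraries, which may be technical. Values per library are listed in the order 1, 2 and 4.

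SOX9 is the transcription factor that cartilage cells (chondrocytes) need to form and to transcribe their matrix genes, and SOX5 and SOX6 are related factors that work beside it. Cartilage matrix is a mesh of collagen II with collagens IX and XI, filled by the proteoglycan aggrecan, which link protein fastens to hyaluronan. In the growth plate of long bones, chondrocytes that are about to enlarge secrete Indian hedgehog, which paces their own maturation through parathyroid hormone-related protein and acts on bone-forming cells nearby.

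Libraries held 11219243 to 19015588 gene counts, so 3 counts, the limit that a count of 0 allows, corresponded to 0.164 to 0.296 CPM. CPM, a count relative to the library's total, was computed with library sizes scaled by TMM, the trimmed mean of M-values. Markers of osteocytes, 9 of 9 tested, summed to 22663 to 48707 CPM in controls and 13734 to 24838 after phlebotomy. On the first principal component of all tested genes (41.8% of variance), phlebotomy 2 was near the controls, at -7.80, against -51.4 to -16.6 for controls and 54.9 and 40.2 for phlebotomy 1 and 4. With edgeR's quasi-likelihood test and Benjamini-Hochberg adjustment, 3 of 18838 genes passed the threshold of 0.05 (0.0159%), and 0 of 18838 were lower (0%), with 1774 lower and 1321 higher at an unadjusted p under 0.05. By DESeq2 206 genes were lower and 78 higher, and limma-voom called 0, with 3020 at an unadjusted p under 0.05.

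RefSeq promoter entries were found for 7 of the 10 genes, and 2 of them are shown: Ihh, which had the smallest p of the 10 genes, and Acan, whose groups overlapped. The log2 fold changes of the pair, phlebotomy minus control, were alike, at -1.06 for Ihh and -1.07 for Acan. Each run is the 250 bases before the RefSeq start on GRCm38.p6, 5′ to 3′ on the gene's strand, with CpG dinucleotides in capitals. The Ihh window is chr1:74951673-74951922 (minus strand) and the Acan window is chr7:79052976-79053225 (plus strand).
Ihh: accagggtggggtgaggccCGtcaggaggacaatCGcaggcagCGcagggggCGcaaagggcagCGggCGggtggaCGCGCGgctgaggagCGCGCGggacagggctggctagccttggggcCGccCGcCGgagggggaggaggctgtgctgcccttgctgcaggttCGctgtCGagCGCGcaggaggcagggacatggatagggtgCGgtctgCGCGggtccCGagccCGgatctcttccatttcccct
Acan: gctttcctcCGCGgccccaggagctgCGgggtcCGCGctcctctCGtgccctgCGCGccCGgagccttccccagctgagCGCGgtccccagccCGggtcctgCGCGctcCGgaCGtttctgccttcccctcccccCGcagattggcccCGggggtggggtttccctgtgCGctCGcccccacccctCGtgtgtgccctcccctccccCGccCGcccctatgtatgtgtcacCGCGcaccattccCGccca
Both windows were rich in CpG. The Ihh window held 24 CpG at 72% GC and the Acan window 26 at 74.4% GC, while the median over 32851 promoters was 6 CpG and 52.4% GC. At least as many CpG as in Ihh stood in 12% of all promoters. A search of both strands for 5 motifs found none in either window. The motifs were AACAAT and ACAAAG for SOX factors, in 9.42% and 16.5% of all promoters, TGTGGT for RUNX factors in 14%, TGGGTGGTC for GLI factors in 0.225%, and the TATA box TATAAA in 12.4%. None of the motifs contains another, and the absence of a match says only that these letters are not in these 250 bases. Sox6 has 6 RefSeq starts in the table, and 5 of the 6 windows before them held ACAAAG, 2 held TGTGGT, 1 held AACAAT and 1 held TATAAA. The window of the outermost Sox6 start (chr7:116038745-116038994) had 1 ACAAAG, 108 to 113 bases before the start. The Hapln1 window held 1 TGTGGT, 155 to 160 bases before its start, and the windows of Sox5, Matn3 and Cnmd held none of the 5 motifs. The windows of Hapln1 (chr13:89540386-89540635) and Sox5 (chr6:143947107-143947356) lie inside these genes by the coordinates given below, so they precede internal starts.

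Per length of exon, the 10 genes fell into an upper and a lower tier. Sox9 stood at 8.65 ± 1.23 CPM per kb in controls (SD, n = 3) and Comp at 7.03 ± 1.65. Ihh followed at 2.59 ± 0.259 and Sox6 at 1.77 ± 0.50 CPM per kb. The remaining 6 genes were all under 0.4 CPM per kb: Cnmd at 0.366 ± 0.349, Hapln1 at 0.285 ± 0.156, Prg4 at 0.284 ± 0.175, Acan at 0.273 ± 0.154, Matn3 at 0.119 ± 0.0672 and Sox5 at 0.0941 ± 0.0345. Neighbours in this order lay within their spread between Sox9 and Comp and among the lower 6, whereas Comp stood above Ihh, Ihh above Sox6 and Sox6 above Cnmd by more than the sum of their SDs.

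**Figure D1:**
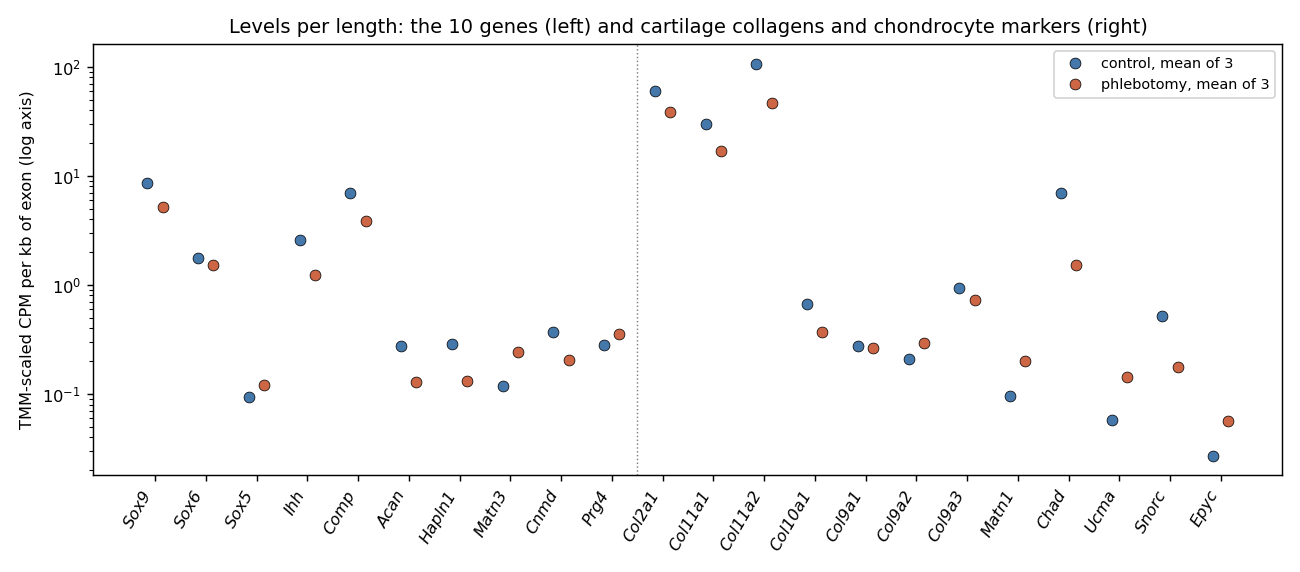
Mean TMM-scaled CPM per kb of merged exon (log axis) in 3 control libraries (blue) and 3 phlebotomy libraries (orange), for the 10 genes at left and cartilage collagens and chondrocyte markers at right. Col2a1 and Col11a2 stand at 59.6 and 107 CPM per kb in controls, far above Acan at 0.273, Matn1 at 0.0952 and Epyc at 0.0271.

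Markers that define chondrocytes were uneven in the same libraries. Col2a1, the chain of collagen II, and Col11a2, a chain of collagen XI, reached 59.6 and 107 CPM per kb in controls, while Col9a1 and Col9a2, chains of collagen IX, stood at 0.273 and 0.211. Matn1 (matrilin-1), Ucma, Snorc and Epyc (epiphycan), all of cartilage, held 10, 2, 17 and 3 counts over the 3 controls and 19, 6, 6 and 7 over the 3 phlebotomy libraries, and none of these 4 was tested. Matn1 was at 0 in control 1, Ucma in control 4 and phlebotomy 2, and Epyc in control 4. Acan therefore stood with the low markers and not with Col2a1. Of 10 chondrocyte markers 6 were tested, and the summed level of all 10 was 880 to 1745 CPM in controls and 402 to 954 after phlebotomy. Col2a1 and Col11a2 made up most of that sum, at 799 and 933 CPM in control 1. Of the 6, 5 had a log2 fold change below 0 (median -0.50), beside 50.2% of all genes. edgeR called 0, with 2 lower at an unadjusted p under 0.05 (9.42% of all genes), and DESeq2 called 1 lower (1.68% of genes with an adjusted p). Groups did not overlap, with phlebotomy lower, for 3 (11.2% of all genes). How many chondrocytes the fractions held was not measured, and in such bulk RNA fewer cells of a type and less RNA per cell cannot be told apart.

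Each phlebotomy library held less Sox9 than any control, without a call over all genes in edgeR. The gene (ENSMUSG00000000567, chromosome 11, 112782224 to 112787760 on GRCm38, plus strand) stood at 41.6, 32.2 and 33.5 CPM in the controls and at 17.1, 23.6 and 23.8 CPM after phlebotomy. Control 1 was the highest library and phlebotomy 1 the lowest, and the groups did not overlap. The log2 fold change, phlebotomy minus control, was -0.73 ± 0.20 (SE), a fitted level of 60.2% of control (edgeR unadjusted p 0.00207, adjusted p 0.160). Pooled over libraries the counts were 1510 and 1024, and their depth-adjusted ratio was 0.614 (exact 95% counting interval 0.567 to 0.665), which covers counting error only. DESeq2 gave an adjusted p of 0.0444, and edgeR gave 0.0451 without phlebotomy 2 and 0.613 without phlebotomy 1. Over 16 alternatives the log2 fold change ran from -0.85 to -0.57 and the adjusted p from 0.0276 to 0.613.

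Sox6 and Sox5, the partners of Sox9, did not share that separation. Sox6 (chromosome 7, 115470872 to 116038796, minus strand), which also acts in red cell precursors, stood at 18.3, 33.0 and 27.6 CPM in the controls and at 23.6, 19.3 and 24.7 CPM after phlebotomy. Control 1 was the lowest of all 6 libraries for Sox6 and control 2 the highest, so the groups overlapped. Its log2 fold change was -0.23 ± 0.22 (SE, edgeR adjusted p 0.617). Sox5 (chromosome 6, 143828425 to 144781977, minus strand) was low, at 1.78, 1.48 and 0.806 CPM in the controls and 1.14, 0.912 and 3.22 CPM after phlebotomy. Phlebotomy 4 held 51 of its 84 phlebotomy counts. The Sox5 log2 fold change was 0.39 ± 0.50 (SE, edgeR adjusted p 0.715), and it was -0.38 without phlebotomy 4. The antisense gene Sox5os1, which shares 1330 exon bases with Sox5 on the other strand, had 0 counts in all libraries. The library kit does not mark strand, so reads of those shared bases cannot be assigned to either gene. The 0 therefore does not show that Sox5os1 was absent.

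Other SOX genes listed as relatives gave no call either. Sox13, of the same SOX group as Sox5 and Sox6, stood at 4.24, 4.37 and 4.64 CPM in the controls and 3.35, 3.13 and 1.58 after phlebotomy. All Sox13 controls lay above all phlebotomy libraries (log2 fold change -0.72 ± 0.31 SE, edgeR adjusted p 0.279). Sox8, of the same group as Sox9, had a log2 fold change of -0.57 ± 0.38, Sox4 of -0.36 ± 0.19, Sox12 of -0.74 ± 0.33 and Sox11 of 0.63 ± 0.43 (SE), with edgeR adjusted p-values of 0.468, 0.354, 0.289 and 0.483. Sox10 held too few counts to be tested.

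Ihh had the smallest p of the 10 genes. It encodes the Indian hedgehog ligand (ENSMUSG00000006538, chromosome 1, 74945315 to 74951672, minus strand) and stood at 8.28, 8.42 and 6.99 CPM in the controls. After phlebotomy it stood at 3.41, 4.17 and 3.73 CPM. The groups did not overlap, and the lowest control lay well above the highest phlebotomy library. The log2 fold change was -1.06 ± 0.24 (SE), a fitted level of 47.8% of control (edgeR unadjusted p 0.000506, adjusted p 0.139). The count ratio, from 342 and 180 counts, was 0.476 (95% exact counting interval 0.396 to 0.572). Phlebotomy 2 was not near the controls for Ihh, unlike its place on the first principal component. DESeq2 gave an adjusted p of 0.0187, and edgeR gave 0.0358 without phlebotomy 2 and 0.613 without phlebotomy 1. Over 16 alternatives the log2 fold change ran from -1.18 to -0.83 and the adjusted p from 0.0187 to 0.613.

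Around Ihh, the receptor side of the hedgehog pathway and its partners in the growth plate were measured from a list of 10 genes, 7 of them tested. Of the 7, 6 had a log2 fold change below 0 (50.2% of all genes) and 1 above, with a median of -0.41. edgeR called 0, with 2 lower at an unadjusted p under 0.05 (9.42% of all genes), and DESeq2 called 0. Gli3, a transcription factor that mainly represses hedgehog targets, stood at 14.2, 12.8 and 11.6 CPM in the controls and 6.17, 10.2 and 7.58 after phlebotomy, without overlap (log2 fold change -0.68 ± 0.23 SE, edgeR adjusted p 0.204). Pth1r, the receptor of parathyroid hormone and its related protein, stood at 80.3, 70.3 and 66.1 CPM and at 38.3, 65.8 and 45.5 CPM, also without overlap, phlebotomy 2 lying just under control 4. Its log2 fold change was -0.53 ± 0.20 (SE, edgeR adjusted p 0.229). Smo, which passes the hedgehog signal into the cell, had a log2 fold change of -0.47 ± 0.23 (SE, edgeR adjusted p 0.319).

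Ptch1, the hedgehog receptor and itself a target of the pathway, stood at 16.9, 19.4 and 14 CPM in the controls and 10.2, 15.5 and 13.8 after phlebotomy. The Ptch1 groups overlapped (log2 fold change -0.35 ± 0.22 SE, edgeR adjusted p 0.433). Gli1, the other widely used target, held only 2, 14 and 5 counts in the controls and 13, 5 and 4 after phlebotomy, and was not tested. Shh and Dhh, the other hedgehog ligands, were also too low to test, at 0.269 to 0.296 and 0.538 to 0.592 CPM in controls. After phlebotomy Shh stood at 0.24 to 0.569 CPM. Dhh held 6, 10 and 8 counts in the controls and 20, 3 and 31 after phlebotomy, with overlap. Ihh was thus the one hedgehog ligand gene with enough counts for a test in these libraries.

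Comp, the gene of cartilage oligomeric matrix protein, a thrombospondin-family protein of cartilage and tendon (ENSMUSG00000031849, chromosome 8, 70373558 to 70382066, plus strand), stood at 17.7, 18.4 and 26.5 CPM in the controls. After phlebotomy it stood at 8.39, 8.93 and 16.9 CPM. The groups did not overlap, but phlebotomy 4 came close to control 1, and library 4 was the highest in each group. Its log2 fold change was -0.87 ± 0.27 (SE), a fitted level of 54.7% of control (edgeR unadjusted p 0.00603, adjusted p 0.191). The count ratio, from 910 and 545 counts, was 0.542 (95% exact counting interval 0.487 to 0.604). Over 16 alternatives the log2 fold change ran from -1.27 to -0.63 and the adjusted p from 0.0112 to 0.627, and the one alternative with a call was edgeR without the filter on low counts.

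Acan and Hapln1, whose proteins aggrecan and link protein bind each other on hyaluronan, had large fitted differences on few counts. Acan (chromosome 7, 79053483 to 79115099, plus strand) stood at 1.78, 1.04 and 3.29 CPM in the controls and 0.779, 0.586 and 1.52 after phlebotomy. The Acan groups overlapped, since phlebotomy 4 lay above control 2. Its log2 fold change was -1.07 ± 0.49 (SE, edgeR unadjusted p 0.0469, adjusted p 0.299), and -0.55 without control 4, which held 49 of the 86 control counts.

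Hapln1 (chromosome 13, 89539796 to 89611652, plus strand) stood at 0.888, 1.48 and 2.69 CPM in the controls and 0.539, 0.912 and 0.885 after phlebotomy. Control 4 was again the highest, and control 1 lay among the phlebotomy libraries. The Hapln1 log2 fold change was -1.13 ± 0.47 (SE, edgeR unadjusted p 0.0310, adjusted p 0.264), and -0.66 without control 4, which held 40 of the 76 control counts. On counting error alone, the ratios of pooled counts were 0.484 for Acan (95% exact interval 0.331 to 0.701) and 0.441 for Hapln1 (0.289 to 0.661).

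Matn3, Cnmd and Prg4 gave no separation. Matn3, the gene of matrilin-3, a matrix adaptor protein (chromosome 12, 8947929 to 8972028, plus strand), held 6, 4 and 4 counts in the controls and 9, 3 and 23 after phlebotomy. Phlebotomy 4 alone stood out for Matn3. Cnmd, the gene of chondromodulin, a cartilage glycoprotein that inhibits vessel growth (chromosome 14, 79637690 to 79662170, minus strand), held 4, 4 and 21 counts in the controls and 5, 7 and 6 after phlebotomy. Here control 4 alone stood out. The ratio of pooled counts was 2.26 for Matn3 (95% exact counting interval 1.19 to 4.55) and 0.562 for Cnmd (0.294 to 1.05). Of the genes not yet given one, the ratio was 0.816 for Sox6 (0.75 to 0.886), 1.33 for Sox5 (0.942 to 1.9) and 1.18 for Prg4 (0.822 to 1.7). With the filter lifted, edgeR gave log2 fold changes of 1.02 ± 0.68 for Matn3 and -0.89 ± 0.67 for Cnmd (SE, adjusted p 0.584 and 0.636 over 46504 genes).

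Prg4, the gene of lubricin, which lubricates joint surfaces (chromosome 1, 150449412 to 150466165, minus strand), stood at 1.08, 2.02 and 0.538 CPM in the controls and 1.80, 1.63 and 1.14 after phlebotomy. Control 2 was the highest and control 4 the lowest Prg4 library, so the phlebotomy values fell inside the control range. Its log2 fold change was 0.29 ± 0.47 (SE, edgeR adjusted p 0.776), and -0.10 without control 4. Prg4 shares 204 exon bases with Tpr, a gene on the other strand at 103.5 to 134 CPM. The library kit does not mark strand, so reads of the shared bases cannot be told apart.

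**Figure D2:**
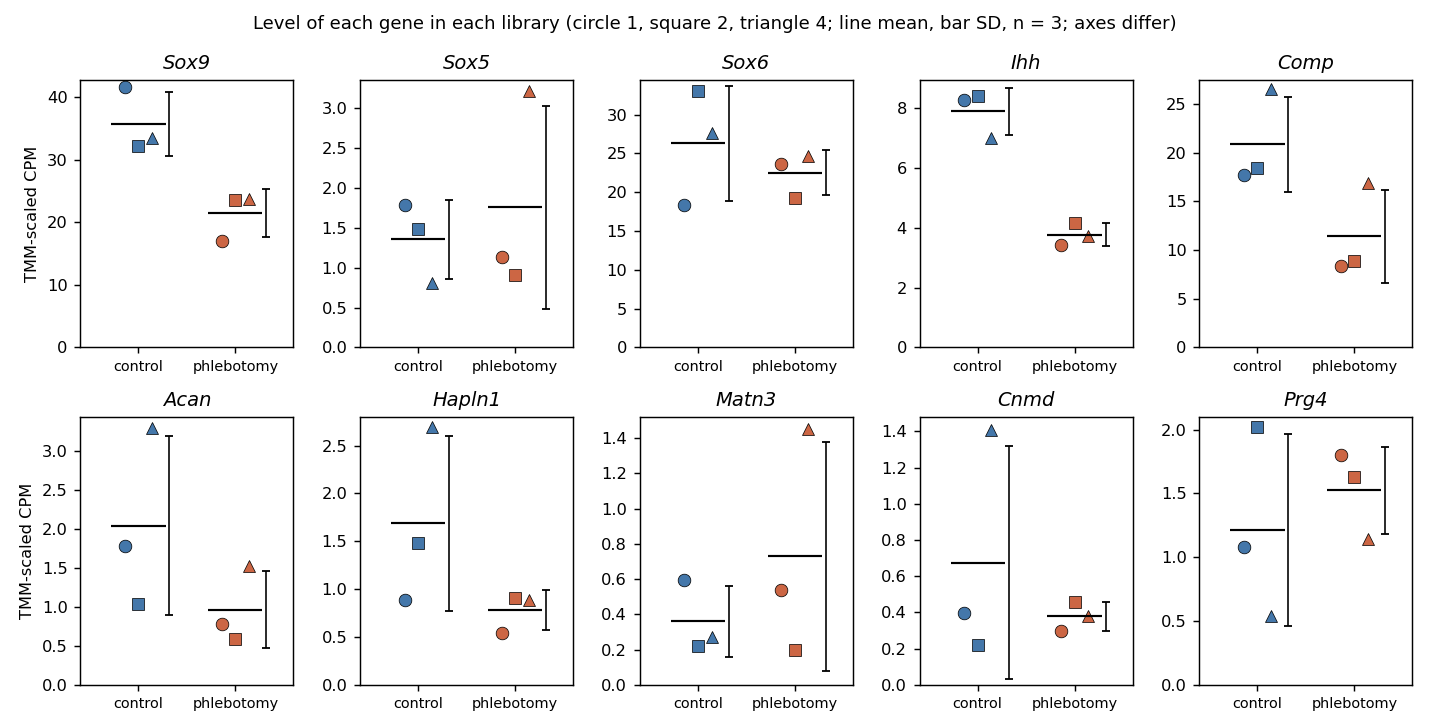
TMM-scaled CPM of each of the 10 genes in 3 control (blue) and 3 phlebotomy (orange) libraries; circles, squares and triangles are libraries 1, 2 and 4, lines are means and bars SDs of 3 libraries, and each panel has its own axis from 0. Control points lie above all phlebotomy points for Sox9, Ihh and Comp, and the groups overlap for the other 7 genes.

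Counted together, the 8 tested genes leaned lower without any call in edgeR. A log2 fold change below 0 was found for 6 of the 8, where 50.2% of all tested genes had one. The median of the 8 was -0.80, beside -0.003 over all genes. In edgeR 0 of the 8 passed over all genes, with 5 lower at an unadjusted p under 0.05 (Ihh, Sox9, Comp, Hapln1 and Acan), where 9.42% of all genes were lower by that rule, and 0 of the 8 higher, where 7.01% of all genes were. Groups did not overlap with phlebotomy lower for 3 of the 8 (Sox9, Ihh and Comp), beside 11.2% of all genes. DESeq2 called Sox9 and Ihh lower (1.68% of 12254 genes with an adjusted p were called lower) and gave no adjusted p for Acan, Hapln1, Sox5 and Prg4. edgeR without phlebotomy 2 called the same pair (2.99% of 20300 genes were called lower). Without the low-count filter edgeR called Sox9, Ihh and Comp lower, beside 0.884% of 46504 genes, and limma-trend on the deposited scaled values with a pseudocount of 0.5 called Ihh lower, beside 0.319% of 28526 genes. These 8 passed the filter on their counts, the genes were chosen with earlier results of these data known, and the shares describe them with no test of the set.

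**Figure D3:**
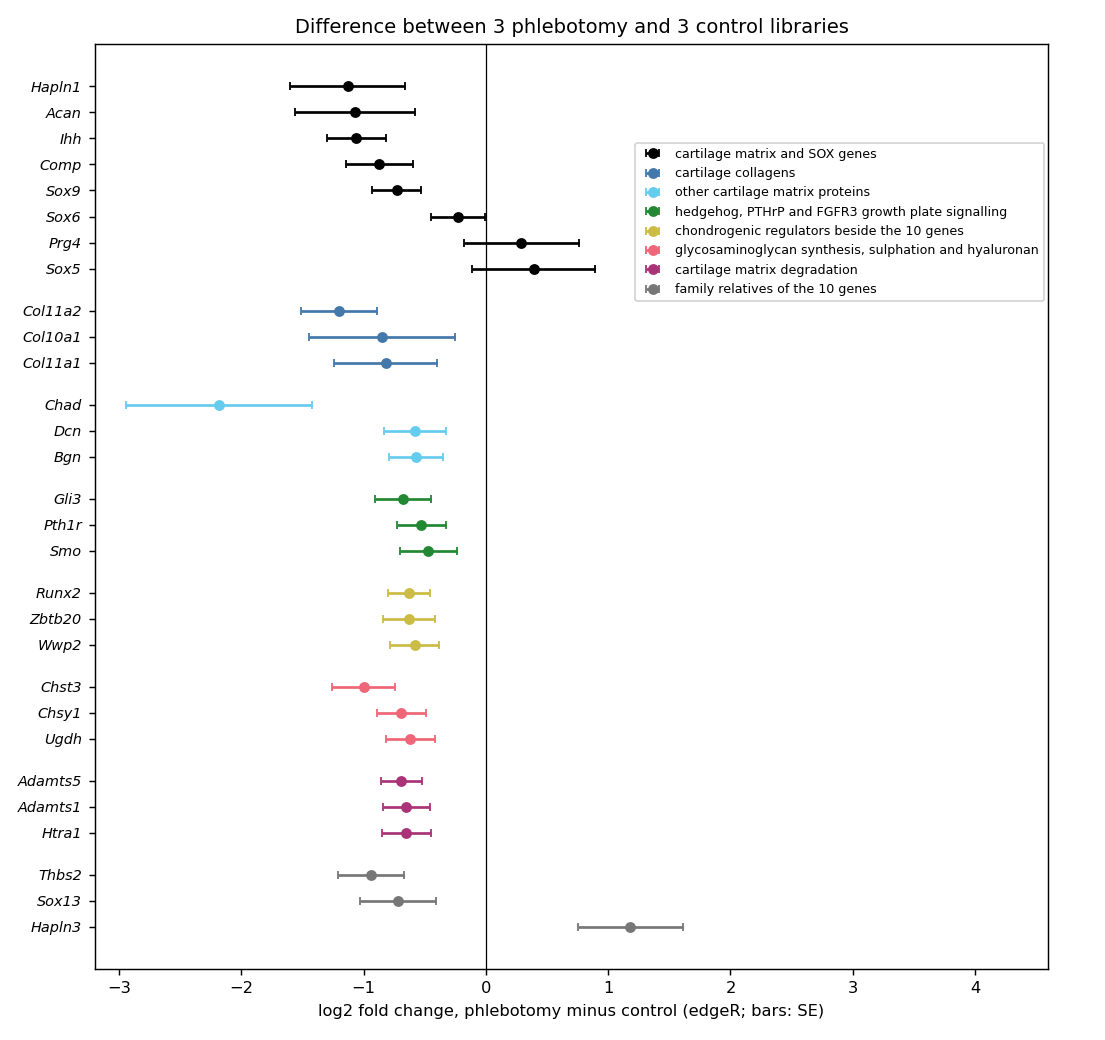
Log2 fold change, phlebotomy minus control, from edgeR with its SE, for the 8 tested genes of the set (black) and up to 3 genes with the smallest p in each of 7 related lists. Sox5, Prg4 and Hapln3 lie above 0 (0.39, 0.29 and 1.18), and the other genes drawn lie below it.

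Among themselves the tested genes did not follow one profile over the libraries. Averaged after centring each gene's log2 CPM on its mean of the 6 libraries, the 8 genes stood at 0.17, 0.30 and 0.30 in the controls and at -0.44, -0.38 and 0.05 after phlebotomy. Every phlebotomy library lay below every control, phlebotomy 4 being the nearest to them. Sox9 alone stood at 0.60, 0.23 and 0.28 and at -0.68, -0.22 and -0.21 on this centred scale, and Ihh at 0.59, 0.62 and 0.35 and at -0.65, -0.38 and -0.53. Acan, Hapln1 and Comp instead peaked in control 4, at 1.27, 1.21 and 0.82, where Prg4 and Sox5 had their lowest values, -1.07 and -0.70.

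Sox9 ran side by side with the osteocyte markers, but not with them alone. For the 6 tested chondrocyte markers the mean centred log2 level was 0.43, 0.14 and 0.39 in the controls. After phlebotomy it was -0.55, -0.12 and -0.28, also close to Sox9 and without overlap between the groups. The mean centred log2 level of the 9 osteocyte markers was 0.63, 0.29 and 0.14 in the controls and -0.65, -0.21 and -0.20 after phlebotomy. Set against it, Sox9 differed by -0.03, -0.06 and 0.14 in the controls and by -0.04, 0.00 and -0.01 after phlebotomy, so that the group means of this relative level differed by -0.03. For Ihh the relative level was -0.04, 0.33 and 0.21 in the controls and -0.01, -0.16 and -0.33 after phlebotomy, with overlap between the groups and a difference of -0.33. Comp relative to the osteocyte markers differed between groups by -0.21, Acan by -0.24 and Hapln1 by -0.19, each with overlap. Against the mean of 8 osteoblast markers, which stood at 0.66, 0.21 and 0.09 and at -0.74, 0.14 and -0.36, the groups of all 8 genes overlapped as well. All 9 osteocyte markers had a log2 fold change below 0 (median -0.68), beside 50.2% of all genes. edgeR called 0 of them, with 8 lower at an unadjusted p under 0.05 (9.42% of all genes). DESeq2 called 1 lower (1.68% of genes with an adjusted p). These values are a description over 6 libraries, and the part of bone cell or chondrocyte content in the levels of Sox9, Ihh and Comp was not tested.

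**Figure D4:**
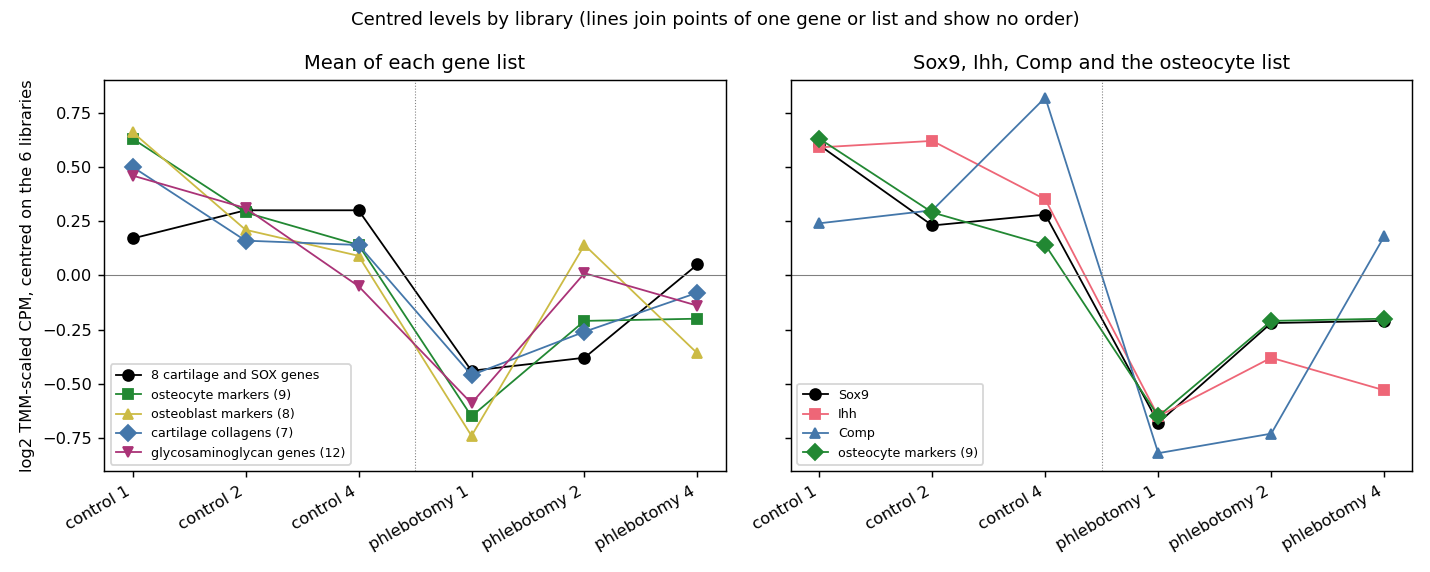
Log2 TMM-scaled CPM centred on the mean of the 6 libraries, by library: at left the mean of the 8 tested genes and of 4 marker or gene lists, at right Sox9, Ihh, Comp and the mean of 9 osteocyte markers. Sox9 lies within 0.14 of the osteocyte mean in every library, while Comp is highest in control 4 at 0.82.

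Among markers of other cell types, only the summed skeletal muscle markers lay apart between the groups. All 8 skeletal muscle markers, of which 4 were tested, summed to 6.02 to 9.67 CPM in controls and 10.2 to 13.0 after phlebotomy. Of these markers, Ckm was at 0 in control 1, and Myh1 and Mb were at 0 in control 1 and control 4. Erythroid markers, 8 of 8 tested, summed to 4857 to 11140 CPM in controls and 8001 to 10823 after phlebotomy, and neutrophil markers, 7 of 7, to 18737 to 44902 and 25433 to 40780 CPM, control 1 being the lowest for both. B cell markers, 6 of 6 matched genes tested, summed to 212 to 275 and 163 to 239 CPM, endothelial markers, 5 of 5, to 381 to 458 and 380 to 463 CPM, and marrow stroma markers, 5 of 5, to 803 to 1019 and 770 to 939 CPM. The summed levels of these 5 other lists overlapped between the groups. The part of any of these cell types in the levels of the 10 genes was not tested.

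Collagens of cartilage, 7 of 7 tested, form the mesh into which aggrecan is packed. Of these, 6 had a log2 fold change below 0 (median -0.63), beside 50.2% of all genes. edgeR called 0, with 1 lower at an unadjusted p under 0.05 (9.42% of all genes). In DESeq2 1 was lower, Col11a2 (1.68% of genes with an adjusted p). Col11a2 stood at 933, 645 and 619 CPM in the controls and at 188, 494 and 276 CPM after phlebotomy. All controls of Col11a2 lay above all phlebotomy libraries (log2 fold change -1.20 ± 0.31 SE, edgeR adjusted p 0.160). Col11a1, another chain of collagen XI, had a log2 fold change of -0.82 ± 0.42, Col2a1 of -0.63 ± 0.48 and Col10a1, the collagen of enlarged chondrocytes, of -0.85 ± 0.60 (SE, edgeR adjusted p 0.374, 0.547 and 0.491), each with overlap. That of Col10a1 was -1.97 without phlebotomy 4 and -0.46 without phlebotomy 2. Col2a1, a known target of SOX9, stood at 799, 623 and 230 CPM in the controls and 207, 450 and 409 after phlebotomy. Its control 4 was low, whereas Acan and Hapln1 peaked in that library.

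Chad, the gene of the cartilage protein chondroadherin, followed Acan and Hapln1 in peaking in control 4. It stood at 7.49, 4.37 and 22.8 CPM in the controls and at 1.02, 4.04 and 2.65 CPM after phlebotomy. The groups did not overlap, although control 2 and phlebotomy 2 were close (log2 fold change -2.18 ± 0.76 SE, edgeR adjusted p 0.257). Without control 4 the log2 fold change of Chad was -1.22. Chad belonged to a list of 15 other matrix proteins, of which 7 were tested and 6 lay below 0 (50.2% of all genes). edgeR called 0 of them, with 3 lower at an unadjusted p under 0.05 (9.42% of all genes), and DESeq2 called 0. Bgn (biglycan) and Dcn (decorin), small proteoglycans that bone also makes, had log2 fold changes of -0.57 ± 0.22 and -0.58 ± 0.25 (SE, edgeR adjusted p 0.241 and 0.271).

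Aggrecan carries chondroitin sulphate chains, and genes that make such chains or make and bind hyaluronan were counted beside Acan. Of 13 such genes 12 were tested and 11 had a log2 fold change below 0 (50.2% of all genes), with a median of -0.55. edgeR called 0 of them, with 7 lower at an unadjusted p under 0.05 (9.42% of all genes), and the groups did not overlap, with phlebotomy lower, for 5 (11.2% of all genes). The DESeq2 fit called 1 lower, Chst3 (1.68% of genes with an adjusted p). Chst3, a chondroitin sulfotransferase, stood at 39.8, 34.2 and 28.6 CPM in the controls and 10.5, 23.9 and 16.9 after phlebotomy. No phlebotomy library reached a control for Chst3 (log2 fold change -1.0 ± 0.26 SE, edgeR adjusted p 0.152). Chsy1, a chondroitin synthase, and Ugdh, which makes the sugar precursor UDP-glucuronate, had log2 fold changes of -0.69 ± 0.20 and -0.62 ± 0.20 (SE, edgeR adjusted p 0.172 and 0.196).

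Aggrecan is cut by ADAMTS proteases. In a list of 8 genes of matrix degradation 7 were tested, and 6 lay below 0 (median -0.49), beside 50.2% of all genes. edgeR called 0, with 4 lower at an unadjusted p under 0.05 (9.42% of all genes). In DESeq2 2 were lower, Adamts5 and Adamts1 (1.68% of genes with an adjusted p). Adamts5, an aggrecan-cutting protease, stood at 58.0, 48.3 and 49.7 CPM in the controls and 30.9, 34.7 and 30.9 after phlebotomy, without overlap (log2 fold change -0.69 ± 0.17 SE, edgeR adjusted p 0.139). Adamts1 and the serine protease gene Htra1 had a log2 fold change of -0.65 each, with SEs of 0.19 and 0.20 (edgeR adjusted p 0.172 and 0.187). The list also holds Timp3, an inhibitor of such proteases, at -0.35 ± 0.19 (SE, edgeR adjusted p 0.382).

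Of 14 regulators of chondrocytes beside the SOX genes 10 were tested. Of these, 9 lay below 0 (median log2 fold change -0.46), beside 50.2% of all genes. edgeR called 0, with 5 lower at an unadjusted p under 0.05 (9.42% of all genes). In DESeq2 1 was lower, Runx2 (1.68% of genes with an adjusted p). Groups did not overlap with phlebotomy lower for 5 (11.2% of all genes), and with phlebotomy higher for 1, Nfib (10.1% of all genes). Runx2, the factor of bone formation and of chondrocyte enlargement, also counted among the osteoblast markers, stood at 71.5, 63.0 and 53.1 CPM in the controls and 38.5, 44.3 and 38.2 after phlebotomy, without overlap (log2 fold change -0.63 ± 0.17 SE, edgeR adjusted p 0.162). Zbtb20, a repressor at work in chondrocyte enlargement, and Wwp2, a ubiquitin ligase whose gene is a Sox9 target, had log2 fold changes of -0.63 ± 0.21 and -0.58 ± 0.20 (SE, edgeR adjusted p 0.201 and 0.203).

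Of 22 family relatives of the 10 genes 16 were tested, with 13 log2 fold changes below 0 (50.2% of all genes), 3 above and a median of -0.44. edgeR called 0, with 3 lower and 1 higher at an unadjusted p under 0.05 (9.42% and 7.01% of all genes). In DESeq2 1 was lower, Thbs2 (1.68% of genes with an adjusted p). Thbs2, a thrombospondin related to Comp, stood at 289, 211 and 208 CPM in the controls and 68.2, 145 and 156 after phlebotomy, without overlap (log2 fold change -0.94 ± 0.27 SE, edgeR adjusted p 0.172). Thbs1, Thbs3 and Thbs4 had log2 fold changes of -0.54 ± 0.27, -0.24 ± 0.37 and -0.61 ± 0.47 (SE), each with overlap. Hapln3, a link protein gene related to Hapln1, went the other way, at 1.28, 0.656 and 0.739 CPM in the controls and 2.46, 1.30 and 2.15 after phlebotomy. All Hapln3 phlebotomy libraries lay above all controls, by a small margin between phlebotomy 2 and control 1 (log2 fold change 1.18 ± 0.43 SE, edgeR adjusted p 0.220). Vcan (versican), a lectican like Acan, had a log2 fold change of -0.08 ± 0.31, and Matn2 and Matn4, relatives of Matn3, of 0.02 ± 0.29 and -0.01 ± 0.30 (SE).

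Genes whose levels over the 6 libraries were most like the mean of the 8 tested genes were Kat6b (Pearson r 0.997), Hoxa10 (0.988), Slc12a7 (0.974), Med15 (0.971) and Pip4k2a (0.970). They were the top 5 among 10420 protein-coding genes with at least 5 CPM on average. On the centred scale Hoxa10 stood at 0.27, 0.50 and 0.49 in the controls and at -0.73, -0.49 and -0.04 after phlebotomy, with phlebotomy 4 closest to the controls as for the 8 genes. All these points share 6 libraries and their depth, and the likeness is a description.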

How the data were processed

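RNA-seq counts of 6 femur libraries were used. The authors deposited whole-number counts per Ensembl gene, a filtered copy of them (28533 rows, 0 counts differing) and a signal table of CPM adjusted with TMM, per the file headers and names. Bone fractions enriched for osteocytes gave total RNA, and Nextera XT libraries were read in paired ends, per the labels' protocols. STAR 2.7.3a, STAR 2.5.2a, DESeq2, edgeR, limma, GRCm38.p3 and mm10 are named in the submitters' processing notes; not given in the sources used here are the counting program and its strand setting. The 19 rows that name no mouse gene (0.00278% to 0.0284% of counts) stayed out of library sizes and tests.

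Genes were filtered with filterByExpr (minimum count 10), scaled with TMM (factors 0.906 to 1.07) and tested with edgeR 4.0.16 (R 4.3.3; robust quasi-likelihood, no covariates, Benjamini-Hochberg over 18838 genes, threshold 0.05). SEs were derived from the F statistic. Levels are computed TMM-scaled CPM; centred log2 levels used a prior count of 2. Alternatives were other scalings and filters, DESeq2 1.42.0, limma 3.58.1 (voom, and trend, on log2 of the deposited table plus 0.5 or 1), the replicate number as a block, removal of a length and GC trend (99.9% of tested genes had values) and leaving out each library. The scripts were tested on simulated data. Coordinates and exon lengths came from GENCODE M21 (GRCm38), promoters from RefSeq. Figures used matplotlib 3.10.9 in Python 3.11.15.

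The 10 genes and all lists were chosen with earlier results of these data known. Named genes are the 10, up to 3 per list by smallest p, and a few set by name with their family relatives.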

Additional observations from a re-analysis of the deposited data

Results flagged for a closer look

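Some rows of the count table that name no mouse gene held a signal in 1 library only, phlebotomy 2. It had 2288 counts of the row Neo, 920 of tg_EGFP, 403 of tg_DsRed, 75 of tg_Venus and 24 of tg_mLamp3, where the controls had at most 12, 6, 0, 0 and 0. Another row that names no mouse gene, tg_GNAS-R201C-EE, was counted in every library. It held 372, 619 and 545 counts in the controls and 423, 560 and 438 after phlebotomy. All rows that name no mouse gene made up 0.0284% of counts in phlebotomy 2 and 0.00278% to 0.00361% in the other libraries. The labels give all libraries the genotype WT. Ihh, Sox9 and Comp in phlebotomy 2, at 4.17, 23.6 and 8.93 CPM, lay below every control, and without this library their log2 fold changes were -1.18, -0.85 and -0.76 (edgeR adjusted p 0.0358, 0.0451 and 0.125). The source of these counts was not tested.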

How the results depend on the processing

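The count of changed genes was 3 in edgeR with other scalings or a minimum count of 50, 2 with a length and GC trend removed, 577 without a filter on low counts, 284 in DESeq2, 117 and 120 in limma-trend with pseudocounts of 0.5 and 1, 0 in limma-voom (3020 at an unadjusted p under 0.05), and 0 to 963 with a library left out. It was 14 without control 2, 7 without control 4, 0 without phlebotomy 1 and 963 without phlebotomy 2. Of the 10 genes, 0 were called in edgeR, 3 without the filter, 2 in DESeq2, 1 in limma-trend with either pseudocount, and 0 to 2 with a library left out. The median log2 fold change of the tested genes, -0.80, ran from -0.94 to -0.60 with a library left out, the latter without control 4. Signs turned for Sox5 without phlebotomy 4 (-0.38; range -0.38 to 0.66) and for Prg4 without control 4 (-0.10; range -0.10 to 0.92), and for no other of the 8 in up to 16 alternatives. The cause of these shifts was not tested. Deviations of same-numbered libraries from their group means had correlations of -0.110, -0.108 and -0.0616. Deviations within a group of 3 constrain each other, so these values cannot decide whether the numbers pair libraries. The main fit used no pairs. A fit with a replicate block called 3 genes and 0 of the 8, with a median of -0.83. Depth limits Acan, Hapln1, Sox5, Prg4, Matn3 and Cnmd, at 14 to 86 counts over the controls.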

Other observations

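Of the 9 markers of tendon and joint lining, Prg4 among them, 7 were tested, and Prg4 was the 1 above 0. The other 6 had log2 fold changes of -0.66 to -0.24. edgeR called 0 of the 7, and DESeq2 called 0. At an unadjusted p under 0.05 in edgeR 0 were lower and 0 higher (9.42% and 7.01% of all genes). The groups overlapped for each of the 7, while the mean of their centred log2 levels was 0.40, 0.17 and 0.03 in the controls and -0.56, -0.02 and -0.02 after phlebotomy. Tnmd, the gene of tenomodulin, a relative of Cnmd made by tendon, stood at 11.5, 5.19 and 5.85 CPM in the controls and 3.11, 5.99 and 4.99 after phlebotomy. Its level per length in controls, 5.56 CPM per kb, was above that of Cnmd at 0.366. Scx, a tendon transcription factor gene, stood at 0.912 to 2.17 CPM over all libraries, and Kera held 0 counts in the controls.

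Cytl1, a cytokine-like gene of chondrocytes outside the naming rule and chosen after its values were seen, held 5, 15 and 15 counts in the controls and 7, 0 and 0 after phlebotomy. It was too low to be tested.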
